A study of Mus musculus with 6 samples.

Results

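Late mitosis was compared with the stages on either side of it, using the 2 peak lists titled LM against the 4 lists titled mito or eG1-1 (2 of each), all 6 lists of the series. The stage names are taken as mitosis, late mitosis (the peak names of the LM lists read Telo) and early G1. The labels give the short names without spelling them out, and the series title names mitotic exit. The cells were CGR8 mouse embryonic stem cells of 1 line carrying a construct labelled Cdt1-MD, untreated, and the 3 stages shared genotype, line and culture. The medium was neurobasal and DMEM/F-12 with N-2, B-27, leukemia inhibitory factor (LIF), 3 µM CHIR99021, which inhibits the kinase GSK3, and 1 µM PD184352, which inhibits the kinase MEK. Members were assigned by the titles alone, with earlier results of these data already known. The labels do not say whether same-stage samples came from separate cultures, so the spread between them may be technical.

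In mitosis chromosomes condense, most transcription stops and many transcription factors leave their sites. At the end of mitosis the chromosomes segregate, the nuclear envelope forms again around each daughter set, and transcription restarts as cells pass into G1. ATAC-seq uses the Tn5 transposase, which inserts sequencing adapters into open DNA, so a peak marks a stretch of accessible chromatin. Promoters of broadly expressed genes usually stay accessible through mitosis, while distal regulatory elements bound by tissue-specific factors often lose accessibility and regain it afterwards. CHIR99021, the MEK inhibitor and LIF together hold embryonic stem cells in the naive pluripotent state.

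Each list gave peak positions and a whole-number score per peak from the authors' peak caller, with no read counts, so depth was unknown. A score ranks peaks within 1 list only. A region missing from a list means that no peak was called there, not that the DNA was closed. On chromosomes 1 to 19, LM replicates 1 and 2 held 23377 and 20289 peaks, against 24101 and 29779 for mito and 31443 and 47411 for eG1-1. Merging overlapping peaks of the 6 lists gave 64018 regions. Because the eG1-1 lists are longer, counts are given as deposited and, where stated, also at equal length, that is, with as many of the strongest peaks from every list as the shortest list, LM replicate 2, holds. Equal length gave 40162 regions. Gene-boundary regions were those centred no more than 1 kb from the start or the far end of a protein-coding gene. All others were distal. Replicate number matched a tag in the peak names that may mark a sequencing run, which the names do not spell out. The tag is called a run below, and for the 2 LM lists replicate and run cannot be told apart.

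The promoters printed next belong to genes that differed at LM and that the gene results return to. Each runs from 250 bases before to 50 bases after the start site (RefSeq, GRCm38.p6), with matches to any of 11 searched motifs in capitals on either strand. Lig3 (chr11:82780859-82781158, plus strand), Eif3l (chr15:79074973-79075272, plus strand), Fbxw5 (chr2:25500500-25500799, plus strand) and Cox6b1 (chr7:30626065-30626364, minus strand) were missing from both LM lists and present in all 4 flanking lists. Get3 (chr8:85025238-85025537, minus strand) was missing from LM replicate 1 alone, and Lrrc34 (chr3:30647769-30648068, minus strand) from LM replicate 2 alone. Dio3 (chr12:110278980-110279279, plus strand) and Msx1 (chr5:37824536-37824835, minus strand) were present in both LM lists and no flanking list. The first 4 have a GC content of 54% (Lig3), 58% (Eif3l), 57.3% (Fbxw5) and 53% (Cox6b1). Dio3 and Msx1 have 69% and 70%. Other promoters lie between, as 1700066M21Rik (lower at LM) and Papss2 (higher at LM) both have 66.3%. Over all promoters higher in both LM lists the median was 69.5% (n = 8) as deposited and 63.7% (n = 32) at equal length.

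Lig3: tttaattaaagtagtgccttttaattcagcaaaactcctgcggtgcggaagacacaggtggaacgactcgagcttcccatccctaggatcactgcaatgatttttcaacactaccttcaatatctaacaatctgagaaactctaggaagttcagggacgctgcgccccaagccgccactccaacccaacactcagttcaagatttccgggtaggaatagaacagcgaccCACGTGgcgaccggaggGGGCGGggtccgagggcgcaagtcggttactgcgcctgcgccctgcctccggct

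Eif3l: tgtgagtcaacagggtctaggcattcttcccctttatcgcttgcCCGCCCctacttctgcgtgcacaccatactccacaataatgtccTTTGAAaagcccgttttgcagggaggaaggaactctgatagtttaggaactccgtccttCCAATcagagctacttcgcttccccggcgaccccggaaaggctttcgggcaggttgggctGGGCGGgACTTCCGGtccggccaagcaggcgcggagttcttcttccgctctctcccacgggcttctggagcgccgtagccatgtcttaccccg

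Fbxw5: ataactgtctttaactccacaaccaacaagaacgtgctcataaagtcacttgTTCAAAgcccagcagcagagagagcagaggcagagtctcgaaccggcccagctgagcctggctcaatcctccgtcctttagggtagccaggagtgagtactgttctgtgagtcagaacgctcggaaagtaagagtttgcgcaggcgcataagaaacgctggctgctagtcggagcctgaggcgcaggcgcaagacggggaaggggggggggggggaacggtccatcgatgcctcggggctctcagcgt

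Cox6b1: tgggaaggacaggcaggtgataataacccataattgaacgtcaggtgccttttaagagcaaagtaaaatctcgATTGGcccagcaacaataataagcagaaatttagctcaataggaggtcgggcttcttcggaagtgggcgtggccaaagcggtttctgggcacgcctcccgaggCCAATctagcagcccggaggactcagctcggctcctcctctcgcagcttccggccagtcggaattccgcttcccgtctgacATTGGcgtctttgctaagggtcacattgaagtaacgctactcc

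Get3: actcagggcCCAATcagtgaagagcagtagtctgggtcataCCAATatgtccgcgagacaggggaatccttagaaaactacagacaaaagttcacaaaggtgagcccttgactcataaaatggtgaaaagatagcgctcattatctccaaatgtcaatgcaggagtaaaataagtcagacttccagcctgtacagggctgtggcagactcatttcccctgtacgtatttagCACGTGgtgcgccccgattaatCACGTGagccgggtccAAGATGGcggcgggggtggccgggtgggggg

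Lrrc34: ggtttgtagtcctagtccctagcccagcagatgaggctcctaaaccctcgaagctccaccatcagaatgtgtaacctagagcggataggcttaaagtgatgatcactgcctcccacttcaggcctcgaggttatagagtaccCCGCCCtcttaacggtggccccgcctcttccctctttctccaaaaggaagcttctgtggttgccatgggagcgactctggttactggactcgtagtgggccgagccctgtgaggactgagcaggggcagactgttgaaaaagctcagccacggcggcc

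Dio3: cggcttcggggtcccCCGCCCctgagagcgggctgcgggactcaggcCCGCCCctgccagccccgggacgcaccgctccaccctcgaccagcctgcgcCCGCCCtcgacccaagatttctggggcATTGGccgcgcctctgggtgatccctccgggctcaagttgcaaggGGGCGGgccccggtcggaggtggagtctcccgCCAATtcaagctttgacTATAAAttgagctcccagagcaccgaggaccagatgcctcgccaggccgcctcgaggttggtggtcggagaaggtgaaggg

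Msx1: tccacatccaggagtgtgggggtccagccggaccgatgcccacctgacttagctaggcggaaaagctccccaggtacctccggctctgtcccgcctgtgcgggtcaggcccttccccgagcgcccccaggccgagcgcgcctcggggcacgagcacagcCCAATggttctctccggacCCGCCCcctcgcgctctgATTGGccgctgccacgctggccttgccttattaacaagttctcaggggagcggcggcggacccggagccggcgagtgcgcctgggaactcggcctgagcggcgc

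The searched motifs were the GC box GGGCGG (in 47% of all promoters), the CCAAT box (38.1%), the ETS motif CCGGAAGT (5.28%) and the NRF1 motif (1.34%). They also included the YY1 motif AAGATGG (6.3%), the CREB motif TGACGTCA (2.3%), the E-box CACGTG (7.89%) and the TATA box TATAAA (12.7%). The last were the octamer ATGCAAAT (1.67%), the Esrrb motif TCAAGGTCA (0.339%) and the TCF motif TTTGAA (15.4%). On the other strand each reads as its reverse complement, and motifs were counted separately where they overlapped. Cox6b1 shows 3 CCAAT matches, Get3 has 2 CACGTG matches and AAGATGG toward its start and CCAAT at its far upstream edge, and Dio3 carries TATAAA and several GGGCGG matches. A match is a description of letters, not a bound site.

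Few regions were lost or gained at LM relative to both neighbours. Of the 13850 regions held by all 4 flanking lists, 834 were missing from both LM lists, 6.02%. In the other direction, 76 of the 64018 regions were held by both LM lists and no flanking list, 0.119%. At equal length the counts were 205 of 9305 regions (2.2%) and 276 of 40162 (0.687%). The number lower therefore exceeded the number higher as deposited and fell below it at equal length, so the direction of the balance depended on list length. Leaving out mito replicate 1, mito replicate 2 or eG1-1 replicate 1 moved the 834 to 1944, 1324 or 1566 regions, and leaving out eG1-1 replicate 1, eG1-1 replicate 2 or mito replicate 2 moved the 76 to 120, 243 or 135. Counts for each LM list by itself are given further on.

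The regions missing at LM were mostly distal. Only 15.3% of the 834 were gene-boundary (Wilson 95% interval 13.1% to 18%, counting error only), against 43.5% of the 13850 they were drawn from. Put per class, 2.12% of gene-boundary regions and 9.03% of distal regions were missing from both LM lists. At equal length the shares were 0.981% and 3.39%. Regions missing from both mito lists and held by every other list were also mostly distal, with 12.8% of 298 gene-boundary. Those missing from both eG1-1 lists were not, with 54.7% of 128. At equal length the gene-boundary shares of missing regions were 22.0% for LM, 14.8% for mito and 53.3% for eG1-1. A mostly distal make-up was therefore not particular to LM.

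The order of the 3 stages also turned on list length. As deposited, regions that both lists of the other 2 stages held and neither list of 1 stage held numbered 834 for LM, 298 for mito and 128 for eG1-1. At equal length they numbered 205 for LM, 298 for mito and 634 for eG1-1, so LM had the most as deposited and the fewest at equal length. Regions held by both lists of 1 stage and no other list numbered 548 for mito, 76 for LM and 3563 for eG1-1, and 586, 276 and 984 at equal length. LM had the fewest stage-only regions in both settings.

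Counted list by list, each LM list missed regions that every other list held more often than any other list did. LM replicate 1 missed 1010 and LM replicate 2 missed 2067, against 821 and 263 in the mito lists and 877 and 117 in the eG1-1 lists. Their mean was 1538.5 ± 747 (SD, n = 2) for LM and 519.5 ± 386 (SD, n = 4) for the flanking lists, a difference of 1019 (exact permutation test over 15 assignments, two-sided, p = 0.0667, the smallest this design can give; 0.333 adjusted over 5 such comparisons). At equal length the 6 counts were 541 and 361 (mito), 527 and 804 (LM), and 828 and 564 (eG1-1), so the groups overlapped and the difference was 92 (exact permutation p = 0.733). Within run 1 the difference was 161 as deposited and -157.5 at equal length, and within run 2 it was 1877 and 341.5.

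**Figure D1:**
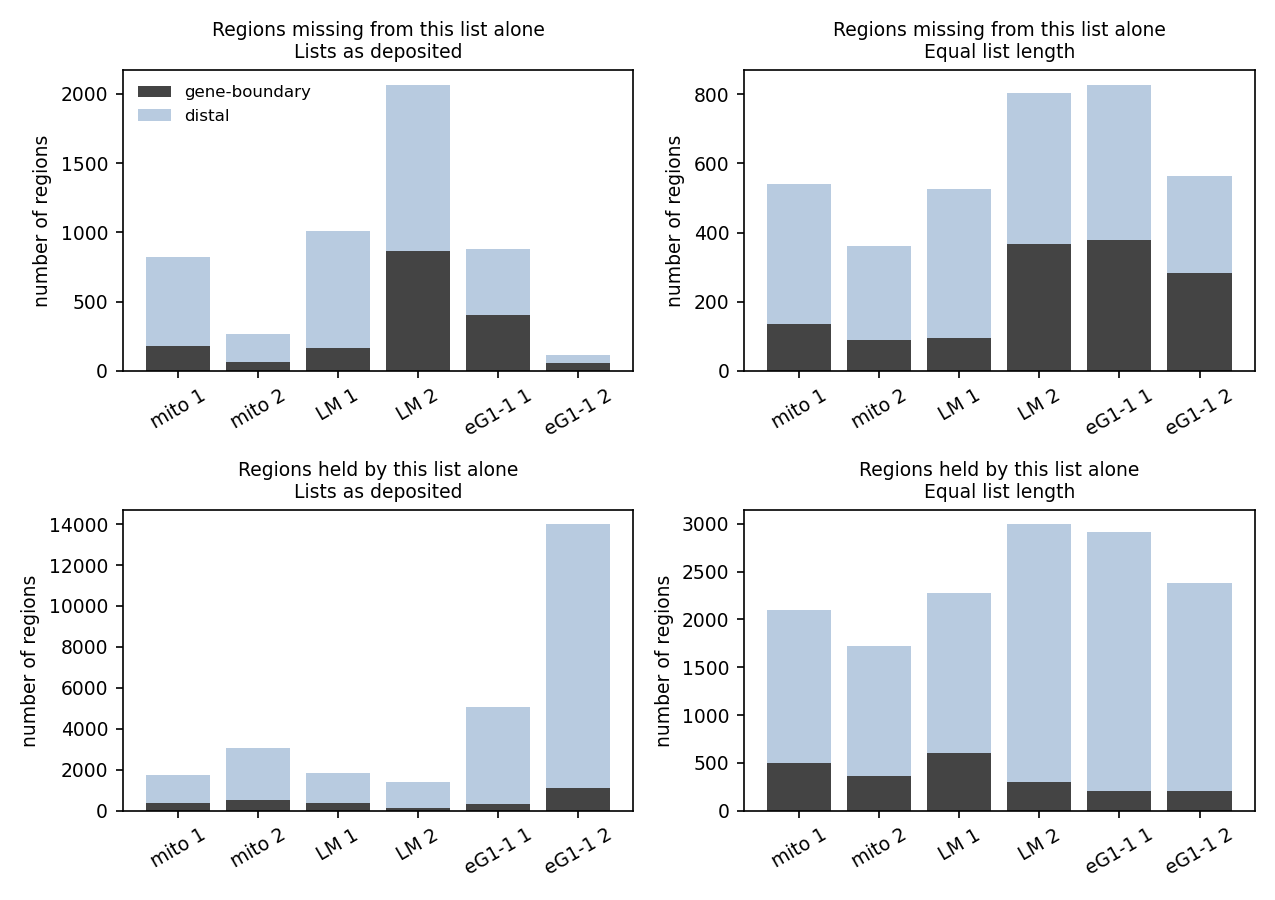
Regions missing from 1 list while the other 5 hold them, and regions held by 1 list alone, for each of the 6 lists (x axis), as stacked numbers of gene-boundary and distal regions (y axis), as deposited (left) and at equal length (right). As deposited the LM lists miss 1010 and 2067 regions alone, above the other 4 lists, and at equal length the 3 stages overlap.

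Regions held by a single list did not separate LM from its neighbours. LM replicates 1 and 2 alone held 1827 and 1426 regions, the mito lists 1760 and 3064, and the eG1-1 lists 5082 and 13981. LM minus flanking was -4345 (exact permutation p = 0.467, 0.583 adjusted) as deposited and 353 (exact permutation p = 0.467) at equal length. Neither difference exceeded the spread between lists. LM replicate 1's own regions were 21.9% gene-boundary and LM replicate 2's 9.40%, so the lists differed in kind as well as number.

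The losses and gains of the 2 LM lists were compared. LM replicate 1 missed 1844 of the 13850 regions of all 4 flanking lists (13.3%) and LM replicate 2 missed 2901 (20.9%). The 834 shared regions were 45.2% of the first set and 28.7% of the second, and at equal length the shared 205 were 28.0% of 732 (7.87% of regions) and 20.3% of 1009 (10.8%). Of the regions held by LM and no flanking list, LM replicate 1 had 1903 (2.97% of all regions) and LM replicate 2 had 1502 (2.35%), and the 76 in common were 3.99% and 5.06% of them. Weak regions are missed by either list more often, so the overlap was also read at matched flanking strength. In the weakest of 5 equal bins LM replicate 2 missed 55.4% of the regions missing from LM replicate 1 and 50.3% of all regions there, and in the next bin 37.1% and 30.8%. With lists of equal length these were 35.6% and 27.7%, then 21.1% and 14.7%.

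What each LM list lost also differed. In LM replicate 1, 4.86% of gene-boundary regions and 19.8% of distal regions were missing, so its losses were 15.9% gene-boundary. In LM replicate 2, 16.4% of gene-boundary and 24.4% of distal regions were missing, and its losses were 34.2% gene-boundary. LM replicate 2 is also the shortest list, with the narrowest peaks (median 335 bp, against 460 bp in LM replicate 1). At equal length LM replicate 1 still missed 3.07% of gene-boundary and 12.5% of distal regions and LM replicate 2 missed 8.96% and 12.7%.

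By rank within common regions, LM replicate 1 lay closer to mito and LM replicate 2 closer to eG1-1. Over the 9939 regions held by all 6 lists, the Spearman correlation of score ranks was 0.680 and 0.665 between LM replicate 1 and the 2 mito lists and 0.560 and 0.569 with the 2 eG1-1 lists. For LM replicate 2 the order was the opposite, 0.566 and 0.583 with mito and 0.638 and 0.681 with eG1-1. The 2 LM lists correlated at 0.599 with each other, below the mito pair (0.679) and the eG1-1 pair (0.726). These values describe 9939 regions that share the libraries and their base composition. At equal length LM replicate 1 had 0.676 and 0.655 with mito and 0.544 and 0.553 with eG1-1, and LM replicate 2 had 0.552 and 0.565 with mito and 0.622 and 0.663 with eG1-1.

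**Figure D2:**
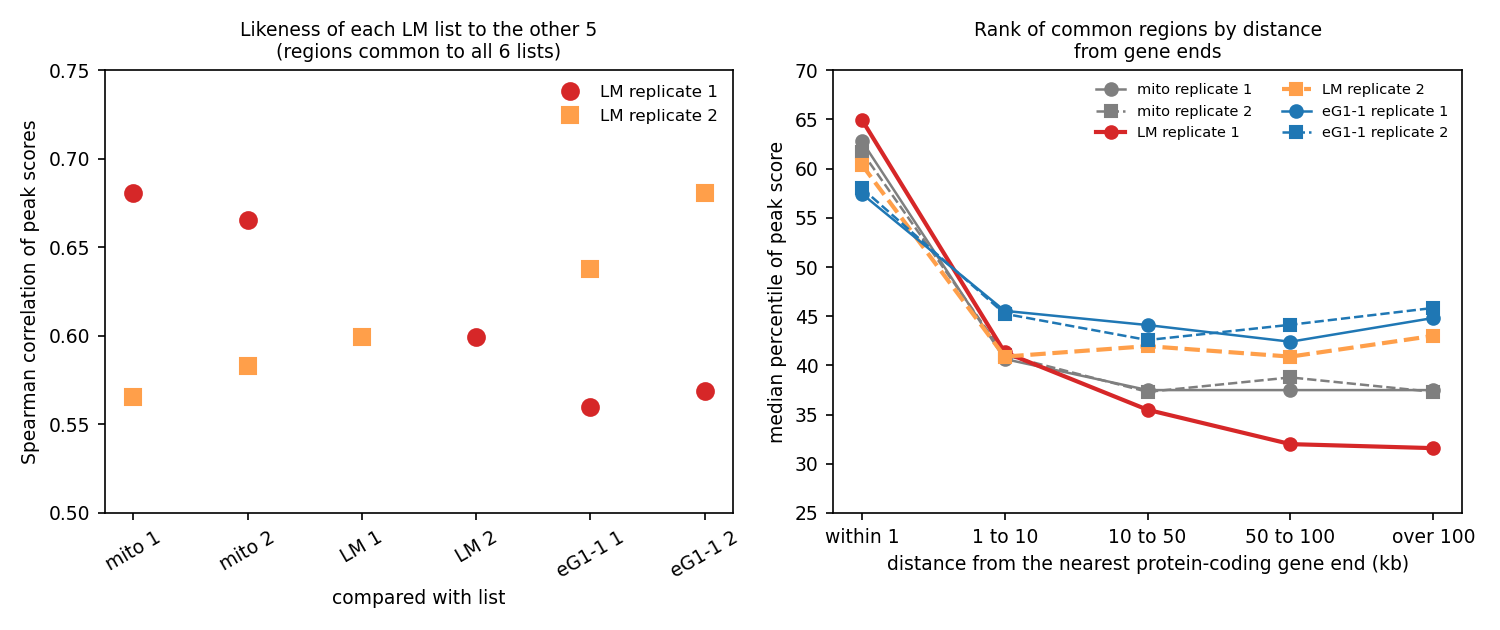
Left, Spearman correlation of peak scores (y axis, no unit, starting at 0.5) of each LM list with the other 5 lists (x axis) over the 9939 common regions as deposited; right, median percentile of the score in each list (y axis) by distance from the nearest protein-coding gene end (x axis, kb). LM replicate 1 lies higher with the mito lists (0.680 and 0.665) and LM replicate 2 with the eG1-1 lists (0.638 and 0.681), and over 100 kb from genes LM replicate 1 is the lowest list at 31.6.

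Regions that separate the flanking stages showed this order for LM replicate 1 and no clear lean for LM replicate 2. Of 1183 regions held by both mito lists and no eG1-1 list, LM replicate 1 held 45.4% and LM replicate 2 held 19.1%. Of 5183 regions held by both eG1-1 lists and no mito list, they held 16.7% and 20.3%. At equal length the shares were 63.3% and 38.8% of 2328 mito regions, and 26.6% and 40.6% of 2096 eG1-1 regions. Among gene-boundary regions of eG1-1, LM replicate 1 held 25.8% and LM replicate 2 held 21.2%, an order that reversed at equal length (37.5% and 42.5%). Among gene-boundary regions of mito they held 57.6% and 19.5%, and 76.0% and 38.1% at equal length. By the share of regions held in common out of those either list holds, LM replicate 2 lay closer to mito (0.447 and 0.446) than to eG1-1 (0.407 and 0.349), the reverse of its order by rank, and at equal length the 2 stages did not separate (0.454 and 0.486 with mito, 0.448 and 0.481 with eG1-1). The median percentile rank of regions over 100 kb from a protein-coding gene end was 31.6 and 43.0 at LM, against 37.5 and 37.3 for mito and 44.8 and 45.8 for eG1-1.

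Strength in the flanking stages went with retention at LM. Regions of all 4 flanking lists were divided into 5 equal bins by mean rank over those 4 lists. In LM replicate 1, 44.3% of distal regions in the weakest bin were missing, then 22.7%, 10.2%, 4.25% and 0.705% in the strongest. Its gene-boundary regions went from 20.5% to 8.40%, 3.42%, 1.5% and 0.156%, lower at each strength. In LM replicate 2 distal regions went from 50.3% to 29.9%, 15.1%, 5.64% and 1.18%, and gene-boundary regions from 50.1% to 32.6%, 17.1%, 7.49% and 1.30%. So in LM replicate 2, at matched strength, gene-boundary and distal regions were missing at near-equal rates, while in LM replicate 1 distal regions were missing more often in each bin. With equal lengths the weakest bin gave 26.4% distal and 14.8% gene-boundary for LM replicate 1 and 27.2% and 28.8% for LM replicate 2.

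**Figure D3:**
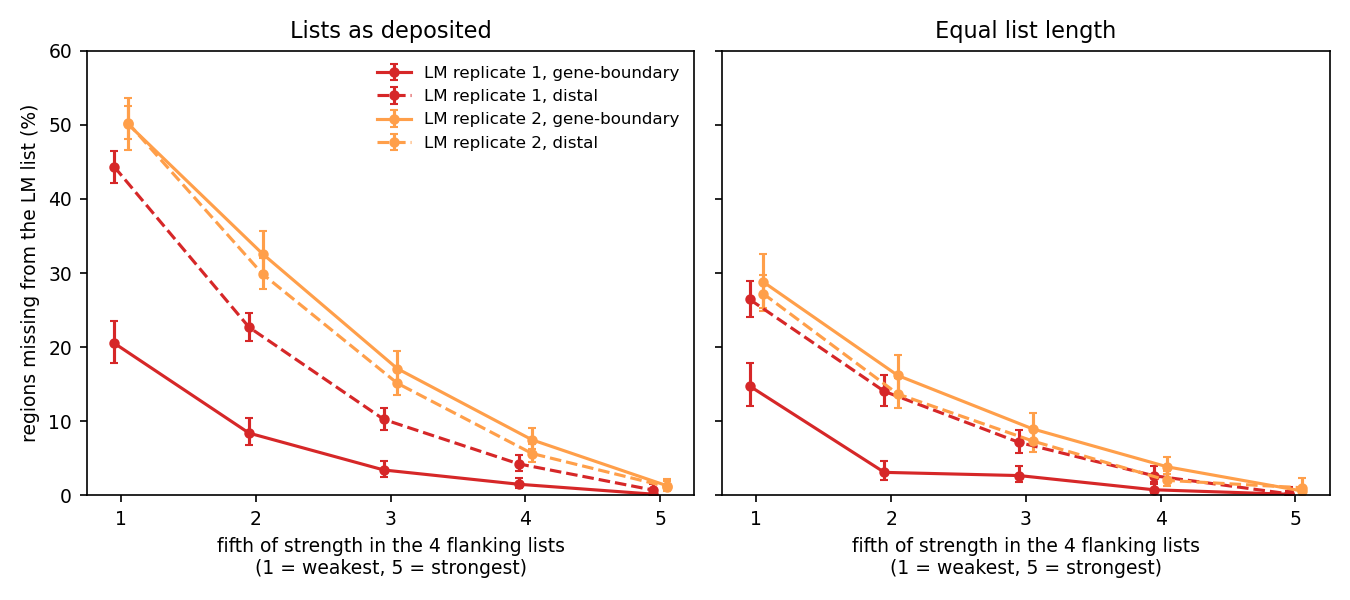
Percent of regions held by all 4 flanking lists that each LM list misses (y axis), by bin of flanking strength (x axis, weakest to strongest), for gene-boundary and distal regions, as deposited (left) and at equal length (right), with 95% Wilson intervals. Distal regions of LM replicate 1 fall from 44.3% to 0.705%, and its gene-boundary regions lie below them in all 5 bins.

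Of the 834 regions missing from both LM lists, 580 (69.5%) were in the weakest bin, 185 (22.2%) in the next, 58 (6.95%) in the middle, and 9 and 2 in the strongest ones. The 2 strongest, described after their values were seen, are chr6:47748300-47748569 (270 bp, distal, nearest gene Gm40363) and chr8:70152470-70152809 (340 bp, at a boundary of Mef2b, which encodes a MADS-box transcription factor). The first scored 201 and 413 in mito, 287 and 317 in eG1-1, and had no LM peak. The second scored 113 and 127 in mito and 203 and 246 in eG1-1, again with no LM peak. Both were also missing at equal length. Mef2b itself was not among the genes called lower at LM in either setting, so the loss is of this region only.

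Over the 19 autosomes, the share missing from both LM lists ran from 3.88% on chromosome 8 to 8.44% on chromosome 14, and at equal length from 0.692% on chromosome 16 to 4.14% on chromosome 14. Regions within 1 kb of a start site were missing from LM replicate 1 in 4.56% and from LM replicate 2 in 16.3% of cases, and those near only the far end of a gene in 8.19% and 18.7%. Of 73 regions at tRNA genes away from protein-coding ends, 4.11% were missing from LM replicate 1, 12.3% from LM replicate 2 and 2.74% from both. Start-site shares at equal length were 2.90% and 8.96%, the far-end shares 4.99% and 10.4%, and of 46 tRNA regions LM replicate 1 missed none and LM replicate 2 missed 3.

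Where all 6 lists held a region, ranks were compared. Of the 9939 common regions, 571 (5.75%) ranked lower in both LM lists than in all 4 flanking lists, and 511 (5.14%) ranked higher. The same counts for the other stages, 2 lists against the other 4, were 1016 (10.2%) lower and 987 (9.93%) higher for mito and 1156 (11.6%) and 1134 (11.4%) for eG1-1, and with lists of equal length mito had 795 and 751 and eG1-1 882 and 902. LM had the fewest in both directions at both lengths, so nothing particular to LM is read from its counts. Gene-boundary regions made up 37.1% of the lower set, 57.7% of the higher set and 49.0% of all common regions. Put per class, 4.35% of gene-boundary and 7.09% of distal regions ranked lower, and 6.05% and 4.26% ranked higher. At equal length 449 (5.78%) were lower at LM, 40.3% of them gene-boundary, and 366 (4.71%) higher, 62.0% of them gene-boundary. Leaving out 1 flanking list raised the counts to between 832 and 980 lower and between 823 and 943 higher.

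The 2 LM lists differed in this, a difference that was not tested. Of the 1901 lower regions of LM replicate 1 (19.1% of common regions) 35.9% were gene-boundary, and of the 1827 higher regions (18.4%) 61.6% were. LM replicate 2 had 1891 lower (19%) and 1802 higher (18.1%), with 48.1% and 49.7% gene-boundary. At equal length these 4 shares were 39.1% and 65.4% for LM replicate 1 and 50.3% and 54.1% for LM replicate 2. Against the mean rank of each flanking stage, LM replicate 1 ranked below both for 40.0% of distal and 25.3% of gene-boundary regions, and above both for 26.5% and 42.4%.

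The strongest rank differences at gene boundaries were Mthfsd, Myo5c, Gstp3, Fzd7 and Mpzl3 (lower) and Ccdc34, Ccm2, Tmx4, the Hrc and Ppfia3 pair and Tdrkh (higher). The LM scores at Mthfsd (chr8:121108098-121108838) were 44 and 36, beside 93 and 120 for mito and 81 and 134 for eG1-1. Fzd7, a Wnt receptor gene, had LM scores of 65 and 75, with 140 and 179 before and 186 and 227 after. Both LM lists ranked below all 4 flanking lists at both genes, by the rank that chose them. Ccdc34 had LM scores of 106 and 106, with 36 and 73 before and 54 and 99 after. Ccm2, a scaffold protein gene linked to cerebral cavernous malformations, had 139 and 112, with 57 and 104 before and 51 and 122 after.

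Distal regions were named by the same rules. Near Pdcd7 (chr9:65338916-65339968) a region ranked lower scored 59 and 41 at LM, beside 115 and 207 for mito and 119 and 216 for eG1-1. In stage order, the higher regions inside Ext1 (chr15:53237310-53238016), a heparan sulfate polymerase gene, scored 32 and 23, 78 and 66, and 32 and 63, and inside Pax2 (chr19:44808590-44809590), a kidney and brain developmental transcription factor gene, 43 and 67, 86 and 98, and 34 and 72. At equal length neither was a common region, as mito replicate 2 kept no peak below 44 and eG1-1 replicate 1 none below 38. Distal regions missing from both LM lists included one in Rhobtb2 (86 and 85 in mito, 115 and 163 in eG1-1) and one in Crtc1, a CREB coactivator gene (76 and 92, then 163 and 131). Of distal regions held only by the LM lists, one near Cma2 (chr14:55963879-55964324) scored 77 and 64 in LM and one near Gpd2 scored 59 and 56.

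Of the 7310 protein-coding genes with a peak within 1 kb of either end in all 4 flanking lists, 132 had none in either LM list, 1.81%, and 9 of all 20665 genes had one in both LM lists only, 0.0436%. LM replicate 1 lacked 302 (4.13%) and LM replicate 2 lacked 1183 (16.2%). At equal length 44 (0.789% of 5576) were lower and 66 (0.319%) higher in both, and LM replicates 1 and 2 lacked 150 (2.69%) and 478 (8.57%). Leaving out mito replicate 1 or eG1-1 replicate 1 moved the 132 to 264 or 300 genes, and leaving out any 1 flanking list moved the 9 to between 14 and 38. A gene has a window of its own, so a peak just outside it is not counted: of the 132 genes, 109 had 1 region common to the 4 flanking lists, and 12 of those regions reached an LM peak outside the window. Requiring the same region left 97 genes lower and 5 of 9 higher, an alternative added after the data were seen.

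The genes described next had the strongest flanking scores among those lower at LM. C8g, a complement component gene, and Fbxw5, an F-box protein gene of cullin ubiquitin ligases, share 1 region between their start sites (chr2:25500430-25500988), scored 76 and 75 in mito, none in LM, and 73 and 102 in eG1-1. Lig3 (chr11:82780414-82781220), which encodes DNA ligase III, was at 68 and 98 in mito and 72 and 89 in eG1-1. Eif3l (chr15:79074775-79075464), a translation initiation factor subunit gene, was at 57 and 75, then 53 and 95.

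Cox6b1 (chr7:30625804-30626971), a cytochrome oxidase subunit gene, was at 52 and 93 in mito and 60 and 66 in eG1-1 with no LM peak. Stam2, an endosomal sorting adaptor gene, was at 65 and 64, then 75 and 77. Mtmr7, a myotubularin-related phosphatase gene, was at 75 and 87, then 53 and 74. The remaining ones were 1700066M21Rik (121 and 89, then 52 and 106) and Sstr3, a somatostatin receptor gene (74 and 52, then 53 and 53). None of these had a peak in either LM list, which the choice of genes fixed. At equal length Cox6b1 and Sstr3 were no longer called lower, and C8g, Fbxw5, Lig3, Stam2, Eif3l, Mtmr7 and 1700066M21Rik still were.

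Ackr3, an atypical chemokine receptor gene, and Oscar, an immune receptor gene, also ranked in this set by their windows, Ackr3 with 135 and 126 before LM and 92 and 234 after, Oscar with 73 and 92 and then 152 and 162. Their merged regions hold LM peaks that lie outside the window, at scores 155 and 135 for Ackr3 and 91 and 55 for Oscar, so neither region was lost at LM. For Fgf4, a fibroblast growth factor that embryonic stem cells secrete, the region at the far end scored 36 and 39 in mito, had no LM peak and scored 87 and 152 in eG1-1. Rpl26 and Tdgf1, a Nodal coreceptor gene, were lower by the window only: mito and eG1-1 peaks of Rpl26 lay in different regions, and the region of Tdgf1 held a peak in LM replicate 1 (89). Fgf4, Rpl26 and Tdgf1 were not called lower at equal length.

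**Figure D4:**
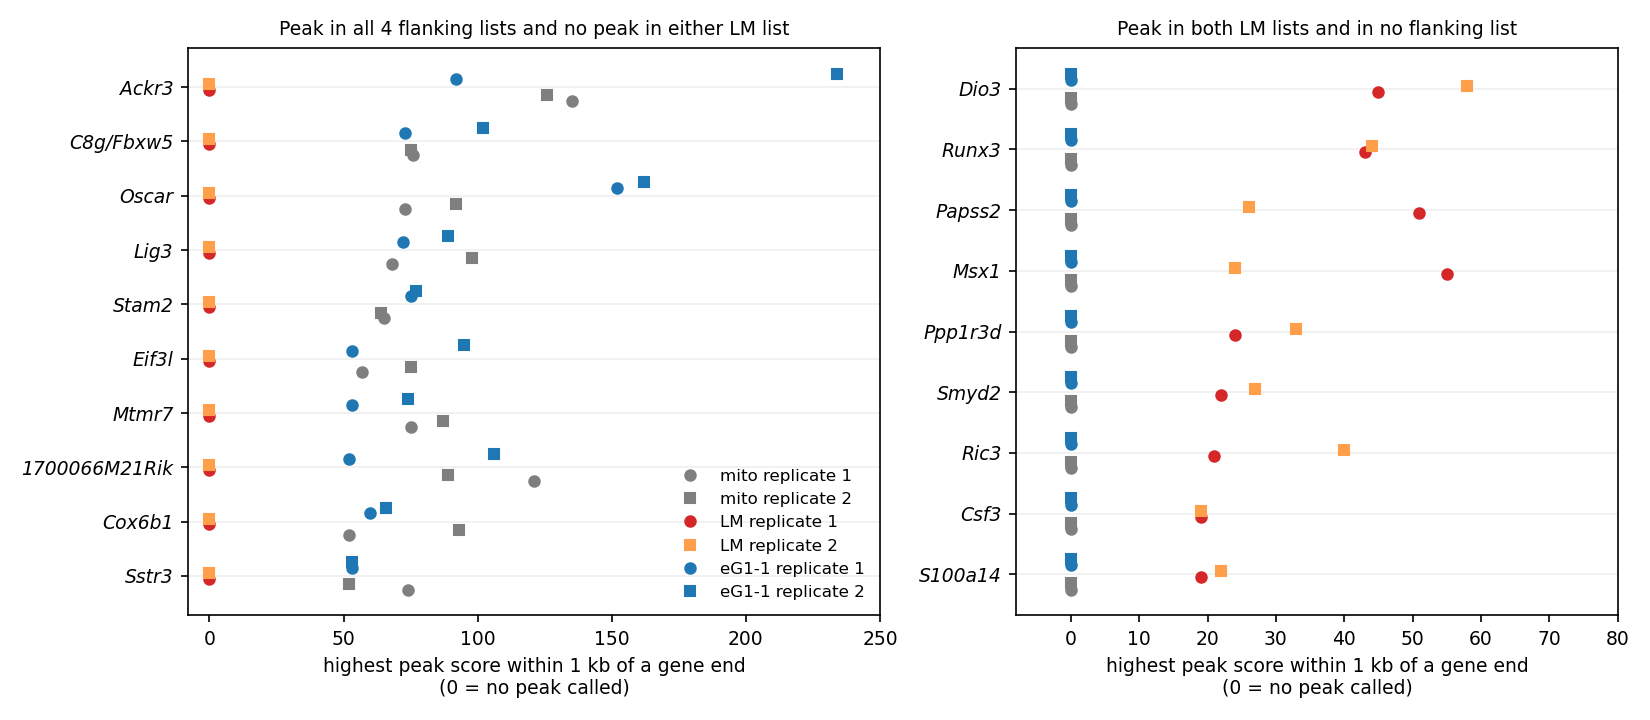
Score of the strongest boundary peak (x axis, authors' score, comparable within a list only) of the genes named by rule (y axis), 1 point for each of the 6 lists, for genes lower (left) and higher (right) in both LM lists, with no peak drawn at 0. Ackr3 and Oscar are drawn at 0 in LM although their merged regions hold LM peaks outside the window.

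The 9 genes higher at LM scored from 19 to 58, where the median peak scored 53 in LM replicate 1 and 48 in LM replicate 2. Dio3 (chr12:110278889-110279489, at its start site), which inactivates thyroid hormone, scored 45 and 58 in LM with no flanking peak, and Msx1 (chr5:37823948-37824892, at its start site), a homeobox gene, 55 and 24. Papss2, which makes the sulfate donor, scored 51 and 26, Smyd2, a lysine methyltransferase gene, 22 and 27, and Ric3, a chaperone gene of acetylcholine receptors, 21 and 40. Runx3 (43 and 44, at its far end) and S100a14 (19 and 22) had flanking peaks in the merged region outside the window, at 25 and 51 in mito replicate 2 and eG1-1 replicate 2 for Runx3 and 73 and 114 for S100a14. Ppp1r3d (24 and 33) and Csf3 (19 and 19) had their LM peaks in different regions. At equal length Dio3, Runx3, Papss2 and Msx1 were still called higher, and Smyd2, Ric3, S100a14, Ppp1r3d and Csf3 were not.

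Genes missing from 1 LM list alone fell into different groups. LM replicate 1 alone lacked Appl1 (92 and 156 in mito, 128 in LM replicate 2, 96 and 249 in eG1-1), an endosomal adaptor gene, Get3 (109 and 100, 39, 87 and 157), which inserts tail-anchored proteins, and H2bc14 (91 and 139, 25, 146 and 87), a histone gene. Also missing only there was Dppa4, a pluripotency-associated gene, with 54 and 67 in mito, 41 in LM replicate 2 and 79 and 57 in eG1-1, though not at equal length, where eG1-1 replicate 2 lacked it.

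LM replicate 2 alone lacked Lrrc34 (171 and 135 in mito, 105 in LM replicate 1, 135 and 183 in eG1-1), Rps24 (117 and 98, 125, 108 and 112), a ribosomal protein gene, Hmox1 (105 and 106, 132, 86 and 127), a stress-response enzyme gene, and Mcm3 (149 and 80, 111, 83 and 154), a replication helicase gene. The bidirectional Gm51579 and Otud4 start sites scored 158 and 258, 313, then 216 and 236. Aktip (318 and 357, 407, then 270 and 424) was missing by window only, since its region holds an LM replicate 2 peak at 245. Of Atf4 and Dusp1, genes of stress and growth-factor response, LM replicate 2 alone lacked both, where LM replicate 1 scored 76 and 114, and at equal length Atf4 alone of this pair was still called.

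Gene lists were counted as the share of members with a boundary peak, minus the same share over all genes. With 2 LM against 4 flanking lists the exact permutation test cannot give a p below 0.0667, so no list could pass, and the test says nothing of whether lists differed (smallest adjusted exact permutation p 0.693 as deposited and 0.867 at equal length). LM lay below the flanking mean for 5 of 13 lists as deposited and 6 at equal length. Of 37 pluripotency genes, 56.8% and 37.8% had a peak at LM, beside 78.4% and 73.0% for mito and 43.2% and 70.3% for eG1-1. Over all genes these shares were 48.9% and 37.0% at LM, 48.1% and 52.0% for mito and 43.4% and 54.3% for eG1-1. Of the 26 pluripotency genes held by both mito lists, LM replicate 1 kept 19 and LM replicate 2 kept 13, and 6 were in neither. The eG1-1 lists kept 13 and 23. These are 73.1% and 50% of the 26 for LM and 50% and 88.5% for eG1-1, where of all 9212 genes held by both mito lists LM kept 92.2% and 74.1% and eG1-1 81.7% and 93.1%.

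The pluripotency shares at equal length were 54.1% and 37.8% at LM, 70.3% and 67.6% for mito and 35.1% and 32.4% for eG1-1. Both LM lists then lay below both mito lists and above both eG1-1 lists, LM replicate 2 by 14 genes against 13 in eG1-1 replicate 1. As deposited the LM values overlapped those of eG1-1. Over all genes the equal-length shares were 46.5% and 37.0% at LM, 45.2% and 45.0% for mito and 35.6% and 36.9% for eG1-1. LM replicate 2 thus lay near its all-gene share. Of 22 pluripotency genes held by both mito lists at equal length, LM kept 16 and 12 (72.7% and 54.5%) and each eG1-1 list kept 9 (40.9%), where of all 8160 such genes LM kept 92.8% and 79.0% and eG1-1 76.1% and 78.1%.

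Single pluripotency genes, picked here after their values were seen, varied. In stage order, Pou5f1, which encodes Oct4, scored 48 and 75, then 49 and none at LM, then none and 43. Klf4 scored 24 and 58, 55 and none, then none and 40, and Myc 47 and 117, 57 and none, then none and 56. Zfp42 and Stat3, a LIF effector, had peaks in all 6 lists: Zfp42 at 127 and 149, 168 and 178, and 191 and 340, and Stat3 at 177 and 182, 285 and 178, and 77 and 210. Esrrb had none in any.

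Distal regions of pluripotency genes missing from both LM lists numbered 4 of 77 (5.19%), below the 9.03% of all distal regions. They were nearest Sox2 (chr3:34734882-34735417, 82688 bp away), scored 30 and 59 in mito and 71 and 59 in eG1-1, Dppa3 (chr6:122624473-122624943, 1716 bp; 54 and 48, then 73 and 84), Otx2 (39 and 23, then 36 and 45), and Jarid2 (inside; 30 and 52, then 88 and 86), a Polycomb cofactor gene. At equal length 2 of 48 (4.17%) were missing, against 3.39% of all distal regions. These were nearest Dppa3 and Sall1, so the regions nearest Sox2, Otx2 and Jarid2 were called as deposited only. Regions were given to the nearest gene whatever the distance. For respiratory chain genes 7 of 24 distal regions (29.2%) were missing from both as deposited, against 9.03% of all distal regions, and 1 of 14 (7.14%) against 3.39% at equal length. Of those 7, 2 were given to Cox7c, 1 of them 1267277 bp away.

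Ribosomal protein and histone genes were missing from LM replicate 2 more often than from LM replicate 1 as deposited, as all genes were (16.2% against 4.13%). Of 39 ribosomal protein genes held by all 4 flanking lists, LM replicate 2 lacked 11 (28.2%), LM replicate 1 lacked 3 and both lacked 1. Of 31 replication-dependent histone genes LM replicate 2 lacked 8 (25.8%), LM replicate 1 lacked 3 and both lacked none. At equal length LM replicate 2 lacked 6 (25%) and LM replicate 1 lacked 1 (4.17%) of 24 ribosomal protein genes, and each lacked 3 of 20 histone genes (15%). Over all genes at equal length LM replicate 2 lacked 8.57% and LM replicate 1 lacked 2.69%. Of 28 G2 and M phase genes, 26 had a peak in all 6 lists (25 at equal length), beside 5957 of all 20665 genes (4992). Of 12 ERK and Wnt target genes held by all 4 flanking lists, both LM lists held 12 (9 of 9 at equal length). Of all 7310 genes held by the 4 flanking lists, both LM lists held 5957 (4992 of 5576 at equal length). Primed and germ layer genes had 14 and 4 of 26 with a peak in the LM lists (53.8% and 15.4%). Mito had 8 and 10 (30.8% and 38.5%) and eG1-1 had 7 and 11 (26.9% and 42.3%). Over all genes the shares were 48.9% and 37.0% at LM, 48.1% and 52.0% for mito and 43.4% and 54.3% for eG1-1. Cdx2 (45), Mesp1 (29) and Pax6 (16), lineage transcription factor genes noticed after their values were seen, had a peak in LM replicate 1 only. Of all 20665 genes, 190 had a peak in LM replicate 1 and no flanking list. Primed and germ layer counts at equal length were 12 and 4 at LM, 5 and 6 for mito and 5 and 6 for eG1-1. At LM these are 46.2% and 15.4%, where all genes at equal length gave 46.5% and 37.0%.

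**Figure D5:**
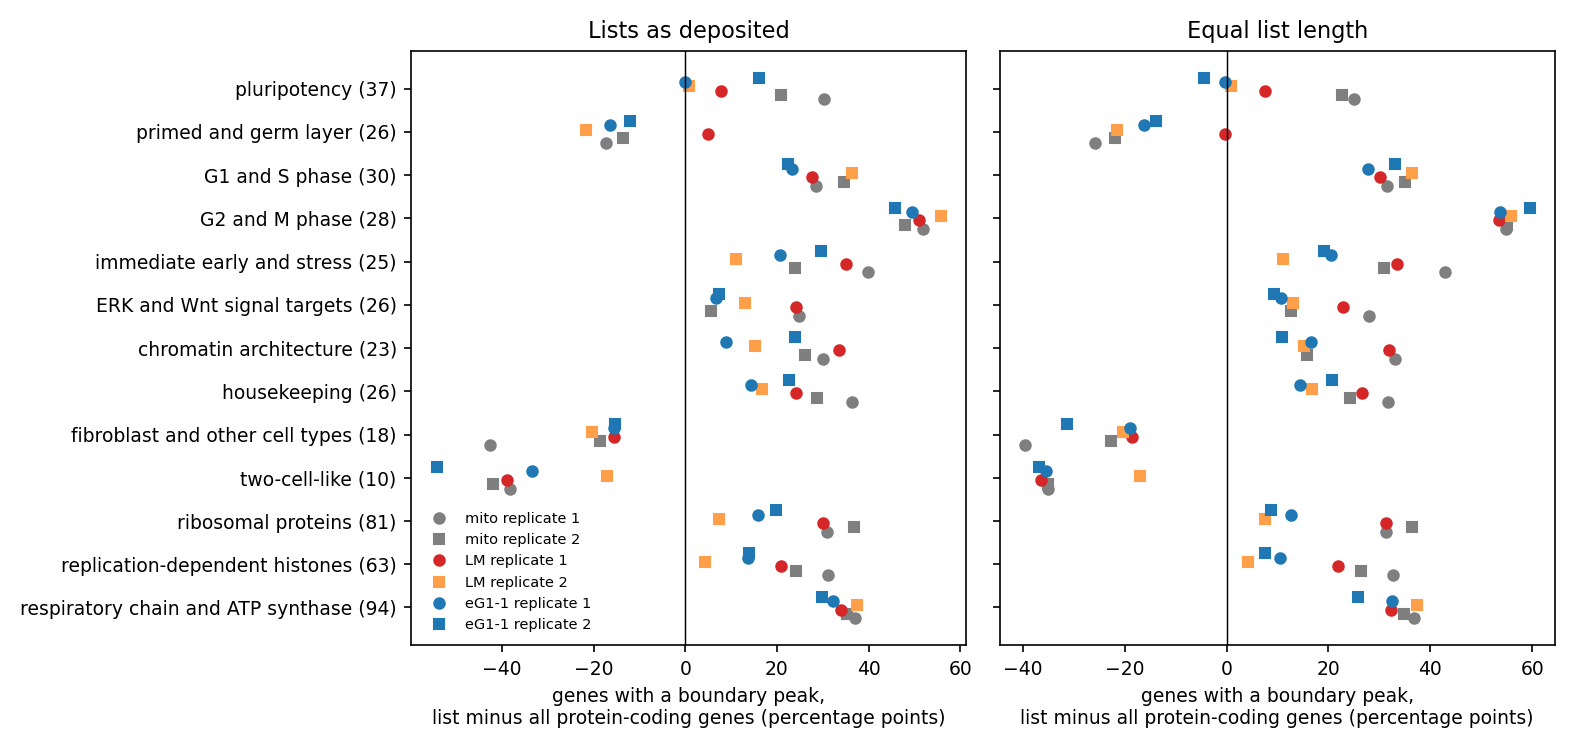
Share of members of each of the 13 gene lists (y axis, number of measured members in brackets) with a boundary peak, minus the same share over all protein-coding genes (x axis, percentage points), 1 point for each of the 6 peak lists, as deposited (left) and at equal length (right). Points of the 2 LM lists lie apart for several lists, with primed and germ layer genes at 53.8% and 15.4% before the subtraction.

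Cell identity markers differed between lists of the same stage. Of 10 embryonic stem cell markers, the LM lists had a boundary peak at 5 and 3, mito at 9 and 7 and eG1-1 at 3 and 7. Of 17 markers of other cell types, the LM lists had 7 and 2, mito 1 and 8 and eG1-1 5 and 8. Embryonic stem cell marker counts at equal length were 5 and 3 at LM, 6 and 6 for mito and 3 and 2 for eG1-1, and the counts for other cell types 7 and 2, 1 and 5, and 4 and 3. None of 5 markers of the 2-cell-like state had one in any list. The gene list for that state, with 10 members, had 1 and 2 with a peak at LM, 1 and 1 in mito and 1 and 0 in eG1-1. At LM these are 10% and 20%, where all genes gave 48.9% and 37.0%. The part of these markers in the results above was not tested.

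Promoter sequence was compared over 300-base promoters. Of 5590 held by all 4 flanking lists, 93 (1.66%) were missing from both LM lists, 238 (4.26%) from LM replicate 1 and 840 (15%) from LM replicate 2. Median GC was 58% for those missing from both, 56.7% for LM replicate 1 and 62.7% for LM replicate 2, against 61.3% for promoters held by all 6 lists and 57% for all 20063 promoters. With promoters of all 4 flanking lists in 5 equal bins of GC, the share missing from LM replicate 1 was 8.68% in the lowest bin and 2.15% in the highest, while for LM replicate 2 it was 14.1% and 20.1%. These shares at equal length were 6.05% and 0.865% for LM replicate 1 and 10.1% and 11.7% for LM replicate 2, and the median GC of promoters missing from both was 55.5%.

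CCAAT was present in 33.3% of promoters missing from both, 52.6% of those held by all 6 and 38.1% of all promoters. Within the weakest bin of flanking strength it was in 36.7% of those held by both LM lists and 37.3% of those missing from both, but in the next bin it was in 37.9% and 14.3% (14 promoters missing), and at equal length the weakest bin gave 37.4% held and 26.5% missing (34 promoters). Few promoters were missing, and the difference at matched strength was not tested. GGGCGG was in 48.4% of promoters missing from both, 71.5% of those held by all 6 and 47.0% of all. Within the weakest bin it was in 64.3% held and 49.3% missing (63.2% and 44.1% at equal length). The 2 LM lists differed in this, with GGGCGG in 52.9% of promoters missing from LM replicate 1 and 69.0% for LM replicate 2. In the weakest bin these were 53.5% and 67.4% (53.9% and 68.6% at equal length), so LM replicate 2 by itself showed no lower share there. These shares are descriptions with no test.

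Per-list totals did not separate LM from its neighbours. The gene-boundary share of peaks was 39.3% and 33.7% at LM, beside 38.2% and 34.1% for mito and 26.3% and 23.0% for eG1-1, a mean of 36.5 ± 3.98 (SD, n = 2) against 30.4 ± 6.94 (SD, n = 4), a difference of 6.11 points (exact permutation p = 0.267, 0.444 adjusted; 7.07 within run 1 and 5.16 within run 2). Genes with a boundary peak were 48.9% and 37.0% at LM, 48.1% and 52.0% for mito and 43.4% and 54.3% for eG1-1 (difference -6.48 points, exact permutation p = 0.267, 0.444 adjusted). That difference was 3.19 points within run 1 and -16.1 within run 2, so its sign differed between runs. Median peak width was 460 and 335 bp at LM, 456 and 504 for mito and 340 and 410 for eG1-1 (difference -30 bp, exact permutation p = 0.6). Within run 1 the width difference was 62 bp and within run 2 it was -122 bp. At equal length the differences were 1.45 points, 1.06 points and -102 bp (exact permutation p = 0.467, 0.533 and 0.333).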

How the data were processed

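ATAC-seq was read in 6 samples, 2 each of mito, LM and eG1-1. Each was deposited as 1 peak list, with a whole-number score per peak, the score given by the authors' peak caller. Per the submitters' processing notes, the tools were MACS2 2.2.4, bedtools, STAR 2.7.0e, deepTools 3.5.1, SAMtools 1.10 and Picard, with builds mm10 and GRCm38 and no role named. No source used here gives the peak threshold or a Tn5 shift. The labels disagree on the cell number, and depth is unknown. Scores were used only for ranks within a list.

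Peaks of all 6 lists on chromosomes 1 to 19 were merged on an overlap of at least 1 bp, and genes were taken from RefSeq (GRCm38.p6), of which 16437 of 20665 protein-coding genes had a promoter sequence. LM was compared with the 4 flanking lists by counts of regions and genes, ranks within common regions, and exact permutation tests over 15 assignments, two-sided, with Benjamini-Hochberg adjustment (Python 3.11.15, pandas 2.3.3, SciPy 1.17.1). The counting steps were tested on simulated lists. The named genes were the 10 with the highest lowest flanking score among those lower, those higher by their lower LM score, 3 missing from each LM list alone, list members among them, and 5 regions per order, chromosome 18 left out. Members and lists were chosen with earlier results of these data known.

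Same-numbered lists shared a tag in the peak names, which may mark a sequencing run. Deviations from the group mean over regions correlated at 0.0332 (mito and LM), 0.0139 (LM and eG1-1) and 0.0330 (mito and eG1-1).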

Additional observations from a re-analysis of the deposited data

How the results depend on the processing

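At equal list length, regions lower numbered 205 and higher 276, genes 44 and 66, the drop in the share missing from the weakest to the strongest bin was 24.8 points (43.2 as deposited), the difference in regions held by 1 list alone became 353.25 and that in the gene share 1.06 points, both with the sign reversed. Requiring a peak to cover 50% of a region left 138 regions ranked lower and 110 higher. A score of at least 50 gave 286 and 254, 23 regions higher and 8 gene lists below. Requiring the same region, chosen after seeing the data, left 5 genes higher.

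Without 1 list at a time, regions lower ran from 975 to 2891, higher from 107 to 1912, genes lower from 165 to 1183, higher from 14 to 190, ranked lower from 832 to 2341, ranked higher from 823 to 2272 and gene lists below from 2 to 7. The median width difference ran from -92.5 to 32.5 bp, the last without LM replicate 2.

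With the replicate number as a block, within numbers 1 and 2, regions lower were 3040 and 8871, higher 4145 and 1928, genes lower 425 and 2604, higher 704 and 107, ranked lower 4080 and 4583, ranked higher 4144 and 4457. Over the 9 assignments within blocks the exact permutation p was 0.333 for the gene-boundary share, 0.333 for genes, 0.667 for width, 0.111 (the smallest) for regions missing alone and 0.556 for regions held alone. The gene-list shares kept their sign in 132 of 143 values. The rest reversed: at equal length G2 and M phase (-1.06); at score 50 ERK and Wnt targets (-1.37), chromatin architecture (-4.68) and respiratory chain (-2.56); without 1 list at a time chromatin architecture (range -7.12 to 11.4), other cell types (-1.42 to 7.65), immediate early genes (-17.6 to 6.51), primed and germ layer genes (-6.78 to 19.7), histones (-16.5 to 0.109) and ribosomal proteins (-18.4 to 4.21). The cause was not tested. Depth is unknown, so absence of a peak is not absence of accessibility.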
